A study of Mus musculus with 5 samples.

Results

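miR-146a, miR-146b and miR-155 are the miRNAs most often named as induced by NF-kB, the transcription factor of inflammatory signalling. They were taken by name from the table of mature miRNA counts. The members mmu-miR-146a-5p, mmu-miR-146b-5p and mmu-miR-155-5p, each the 5p strand of its hairpin, are 3 of the 1966 rows, and the species prefix is left out below. The 3p strands of the same hairpins are described beside them. The libraries held small RNA from small extracellular vesicles (EVs) released by cultured mesenchymal stem cells of C57BL/6-GFP transgenic mice. In both groups the cells had spent 48 h in serum-reduced medium, and the vesicles were pelleted at 100000 g from medium passed through a 0.22 µm filter. One group was not freeze-dried and is called unmodified (n = 2), and the other (n = 3) followed a freeze-drying protocol of freezing at -80 °C in buffer with 25 mM trehalose, drying overnight and rehydration for 1 h. Before that, the vesicles of both groups were resuspended in a buffer with or without 25 mM trehalose, and the labels do not say which library had which buffer or storage temperature. Whether replicates are separate cultures is not stated, so the p-values reflect only how far these libraries spread, which may be technical.

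miRNAs guide Argonaute proteins to messenger RNAs, mainly through the seed at bases 2 to 8, and lower their translation and stability. miR-146a and miR-146b share a seed and are known for repressing Traf6 and Irak1. These proteins carry toll-like receptor and interleukin-1 receptor signals to NF-kB, so that both miRNAs act as a brake on it. miR-155 is processed from the transcript of Mir155hg and is known for repressing Socs1 and Inpp5d, which restrain cytokine and phosphoinositide signalling. In mesenchymal stem cells these miRNAs are studied as vesicle cargo that can reach macrophages and other immune cells. The cells were not stimulated according to the labels, and no messenger RNA was measured, so the NF-kB response itself was not tested.

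The mature sequences are shown because miR-146a and miR-146b are near in sequence and took different values. Sequences and coordinates are those of RefSeq on GRCm38.p6, and capitals mark the seed.
miR-146a-5p: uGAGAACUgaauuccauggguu
miR-146b-5p: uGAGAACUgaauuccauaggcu
miR-155-5p: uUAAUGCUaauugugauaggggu
Of 1679 mature miRNAs in the RefSeq table, 2 have the seed GAGAACU, miR-146a-5p and miR-146b-5p, and 1 has UAAUGCU, miR-155-5p. The miR-146 pair is identical over its first 17 bases and differs at 2 of 22, written from miR-146a-5p to miR-146b-5p as G18A and U21C, with positions counted from the 5′ end. Below, capitals mark those bases.
miR-146a-5p: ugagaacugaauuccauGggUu
miR-146b-5p: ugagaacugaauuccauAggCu
A read that stops before base 18 is the same for both. How the counting treated such reads is not given in the sources used here, and its part in the values below was not tested. The reads were not analysed here, so whether all counts of miR-146a-5p come from full-length copies of it was not tested either. No other miRNA of the RefSeq table is that near. Among 1676 compared, the smallest edit distance to a non-member was 7 for miR-146a-5p, 8 for miR-146b-5p and 8 for miR-155-5p. The count table has 1966 rows, so not all of its miRNAs were compared.

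The 3 hairpins lie apart in the genome. Mature miR-146a-5p is at chr11:43374435-43374456 on the minus strand, and in GENCODE M21 its hairpin gene lies in no other gene. Mature miR-146b-5p is at chr19:46342790-46342811 on the plus strand, in an intron of Mfsd13a. Mature miR-155-5p is at chr16:84714143-84714165 on the plus strand, in an exon of the lincRNA Mir155hg. The hairpins are printed with the counted 5p strand in capitals, to show which strand gave the counts.
Mir146: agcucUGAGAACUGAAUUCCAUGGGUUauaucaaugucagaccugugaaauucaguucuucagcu
Mir146b: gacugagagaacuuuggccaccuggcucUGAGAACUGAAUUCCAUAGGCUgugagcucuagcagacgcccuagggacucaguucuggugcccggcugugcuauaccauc
Mir155: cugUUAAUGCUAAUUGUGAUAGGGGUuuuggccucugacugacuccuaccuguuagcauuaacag
Over all 5 libraries the 5p strands had 4276 counts for miR-146a, 2682 for miR-146b and 5149 for miR-155. The 3p strands miR-146a-3p, miR-146b-3p and miR-155-3p had 0 counts in every library. By counting error alone, 0 counts allow a 3p strand up to 0.0702% of the 5p counts for miR-146a, 0.112% for miR-146b and 0.0583% for miR-155.

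Library depth has to be given before the values. Total miRNA counts were 912080, 2914305 and 2473178 in the libraries called deep here, and 131507 and 192450 in the shallow ones. The shallow libraries are unmodified replicate 2 and freeze-dried replicate 3, so each group holds 1 of them. This division was made from the totals and is not the study's own. Levels below are in CPM, miRNA counts divided by the library total and multiplied by a fixed factor, with the total scaled by TMM, edgeR's correction for differences in composition. CPM is a share of a library's miRNA counts and not an amount per vesicle. A lower level can mean fewer vesicles with the miRNA, fewer copies in each or higher shares of other miRNAs. These cannot be told apart here.

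miR-146a-5p, the best known of the NF-kB feedback miRNAs, took very different levels in libraries of the same group. In unmodified EVs it had 410 counts in replicate 1, a level of 402 CPM, and 1528 counts in replicate 2, a level of 11695 CPM. In freeze-dried EVs it had 381 counts (138 CPM) in replicate 1, 203 counts (78.7 CPM) in replicate 2 and 1754 counts (9972 CPM) in replicate 3. The highest values were those of the shallow libraries, where even the raw counts exceeded those of the deep ones. Both groups spanned a wide range, and the lowest values, 78.7 and 138 CPM, were both freeze-dried. miR-146a-5p ranked 19th of 315 miRNAs with a count in the shallow unmodified library and 23rd of 336 in the shallow freeze-dried one. In the deep libraries it ranked 111th of 323, 157th of 361 and 201st of 320. Its highest level was 149 times its lowest, the widest range among the 152 miRNAs with at least 10 counts in every library, whose median range was 2.53-fold. Ordered by level, no neighbouring libraries had overlapping exact 95% binomial intervals, which cover counting error only. On the scale of CPM of the raw total these intervals were 71.2 to 94.2, 118 to 145, 407 to 495, 8694 to 9549 and 11047 to 12213.

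miR-146b-5p, with the same seed, varied over a far narrower range. Its counts were 418 and 158 in unmodified EVs, or 410 and 1209 CPM. In freeze-dried EVs they were 1162, 684 and 260, or 422, 265 and 1478 CPM. The shallow libraries were again the highest in each group, with the highest level 5.57 times the lowest. Intervals on raw CPM overlapped between unmodified replicate 1 (415 to 504) and freeze-dried replicate 1 (376 to 422). They also overlapped between the shallow libraries, at 1022 to 1404 and 1192 to 1525.

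miR-155-5p, a miRNA of activated lymphocytes and macrophages, had the lowest level in the deep unmodified library. Its counts in unmodified EVs were 263 and 147, or 258 and 1125 CPM. In freeze-dried EVs they were 2336, 2154 and 249, or 849, 836 and 1416 CPM. Its highest level was 5.49 times its lowest. The groups overlapped, since unmodified replicate 2 lay above freeze-dried replicates 1 and 2. Those freeze-dried replicates had touching intervals on raw CPM (769 to 835 and 835 to 909), and the intervals of the shallow libraries also overlapped (944 to 1314 and 1138 to 1465).

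**Figure D1:**
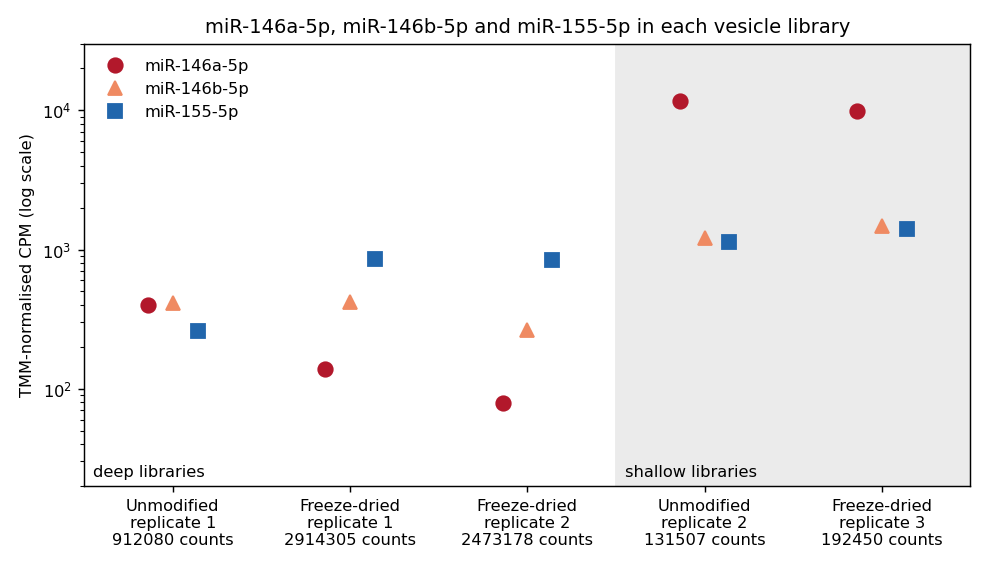
Levels of miR-146a-5p, miR-146b-5p and miR-155-5p in each of the 5 vesicle libraries, as TMM-normalised CPM on a log axis, with 1 point per miRNA and library and the shallow libraries on grey. miR-146a-5p stands at 78.7 to 402 CPM in the deep libraries and at 9972 and 11695 CPM in the shallow ones, while the other miRNAs stay between 258 and 1478 CPM.

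The comparison the study was designed for, freeze-dried against unmodified EVs, gave no call for any of the 3 miRNAs. All 3 passed the low-count filter. edgeR's quasi-likelihood test called 0 of 327 tested miRNAs at an adjusted p under 0.05, so that percent called is 0 for the whole table as well. At an unadjusted p under 0.05 edgeR had 9 of 327, or 2.75%, DESeq2 16 and limma-voom 16. None of the 3 was among edgeR's, and miR-155-5p was among those of limma-voom (log2 fold change 1.42, interval 0.06 to 2.77, unadjusted p = 0.042, adjusted p = 0.87). A full gap in CPM between the groups was found for 17.4% of the tested miRNAs and for 0 of these 3.

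The miR-146a-5p level averaged 6049 ± 7986 CPM over the unmodified libraries (SD, n = 2) and 3396 ± 5695 CPM over the freeze-dried ones (SD, n = 3). The SD exceeded the mean in both groups. On the log2 scale edgeR estimated freeze-dried over unmodified at -0.83, with an SE of 2.87 and a 95% interval of -9.55 to 7.88 (adjusted p = 0.98). An interval of that width holds large losses and large gains. Without unmodified replicate 2 the log2 fold change was 2.98, and without freeze-dried replicate 3 it was -5.68, so its direction rested on which shallow library was present.

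The group averages of miR-146b-5p lay closer, at 809 ± 565 CPM unmodified (SD, n = 2) and 722 ± 660 CPM freeze-dried (SD, n = 3). edgeR's estimate on the log2 scale was -0.17 with an SE of 0.81 and an interval of -2.0 to 1.67 (adjusted p = 0.98). The sign turned when unmodified replicate 2 was left out (0.74), and also when either of the deep freeze-dried libraries was (0.13 for replicate 1, 0.22 for replicate 2).

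For miR-155-5p the average was the higher one after freeze-drying, 1033 ± 331 CPM (SD, n = 3) against 691 ± 613 CPM unmodified (SD, n = 2). The estimate from edgeR was 0.59 on the log2 scale, its SE 0.65 and its interval -0.87 to 2.04 (adjusted p = 0.98). It was -0.06 without unmodified replicate 1 and 1.95 without unmodified replicate 2, the latter with an interval of 0.31 to 3.59 (edgeR unadjusted p = 0.022, adjusted p = 0.83).

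Within libraries of like depth the values were less spread. Between the shallow libraries, 1 against 1 and so with no test, miR-146a-5p was 1.17 times higher without freeze-drying, miR-146b-5p 1.22 times higher with it and miR-155-5p 1.26 times higher with it. Among the deep libraries, 1 against 2, the unmodified library had 3.70 times the mean miR-146a-5p level of the freeze-dried ones and 1.19 times their miR-146b-5p level. miR-155-5p was 3.27 times higher in the deep freeze-dried libraries. The direction was the same in both depth classes for miR-146a-5p and miR-155-5p and opposite for miR-146b-5p. Between the shallow libraries, the binomial intervals overlapped for miR-146b-5p and miR-155-5p. The share of all tested miRNAs with the same direction in both depth classes was not computed.

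edgeR with depth class as a term beside the group put miR-146a-5p at -1.21 on the log2 scale (SE 0.41, interval -2.15 to -0.26, unadjusted p = 0.019, adjusted p = 0.87). miR-155-5p had 1.1 (SE 0.48, interval -0.01 to 2.21, adjusted p = 0.87) and miR-146b-5p -0.03 (SE 0.45, interval -1.08 to 1.03, adjusted p = 0.98) in that fit. At an unadjusted p under 0.05 the same edgeR fit had 13 of 327 tested miRNAs. In the 3 deep libraries alone edgeR gave -1.91 for miR-146a-5p (adjusted p = 0.86), -0.28 for miR-146b-5p (adjusted p = 0.94) and 1.69 for miR-155-5p (interval 0.38 to 3.00, unadjusted p = 0.015, adjusted p = 0.73). That fit assumes that the single unmodified library varies as the others do. None of these passed the adjusted threshold.

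**Figure D2:**
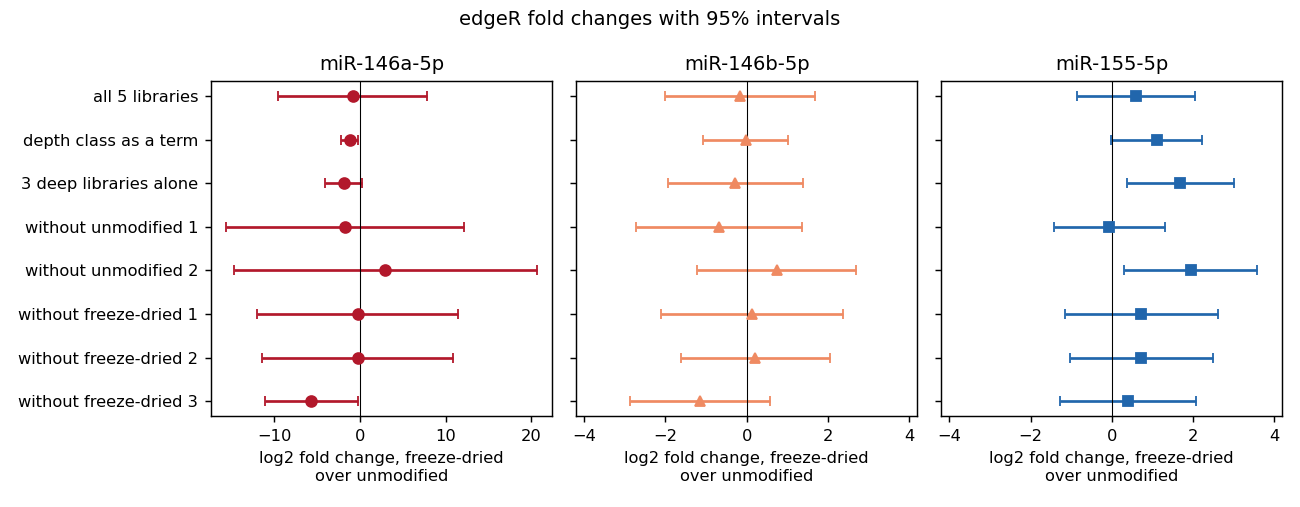
log2 fold changes of the 3 miRNAs, freeze-dried over unmodified, from edgeR with 95% intervals as bars, for all libraries, for depth class as a term, for the deep libraries alone and with each library left out. The axis of miR-146a-5p is wider than the others. The miR-146a-5p interval of -9.55 to 7.88 narrows to -2.15 to -0.26 once depth class is a term (edgeR adjusted p = 0.87).

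The 3 miRNAs were all higher in the shallow libraries than in any deep one. Such a gap was found for 15.6% of the tested miRNAs, with 15.3% lower in both shallow libraries. miR-146a-5p averaged 206 ± 172 CPM in the deep libraries (SD, n = 3) and 10834 ± 1219 CPM in the shallow ones (SD, n = 2). The gap was 29.1-fold among unmodified EVs and 91.8-fold among freeze-dried EVs. miR-146b-5p averaged 366 ± 87.2 CPM in the deep (SD, n = 3) and 1344 ± 190 CPM in the shallow libraries (SD, n = 2), a gap of 2.95-fold and 4.3-fold in the same order. For miR-155-5p the deep average was 647 ± 337 CPM (SD, n = 3), the shallow average 1270 ± 205 CPM (SD, n = 2), and the gaps 4.37-fold and 1.68-fold.

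In the edgeR fit with group and depth class, the depth term was called for 10 of 327 miRNAs, or 3.06%, of which 5 (1.53%) were higher and 5 (1.53%) lower in the shallow libraries. This test was chosen after the values were seen, and its count of called miRNAs ran from 0 without freeze-dried replicate 3 to 25 without freeze-dried replicate 1. miR-146a-5p had the smallest p of all 327, with a log2 difference of 5.85 (SE 0.46, interval 4.77 to 6.92, adjusted p = 0.00058). The other called ones on the higher side were miR-3069-3p, miR-6240, miR-92a-3p and miR-6236. miR-146b-5p had a log2 difference of 1.88 (SE 0.45, edgeR adjusted p = 0.077, 14th by p) and miR-155-5p one of 1.36 (SE 0.46, edgeR adjusted p = 0.22, 28th by p). The miR-146a-5p call was lost without freeze-dried replicate 3 (log2 4.72, edgeR adjusted p = 0.28) and without freeze-dried replicate 1 (log2 5.90, edgeR adjusted p = 0.14), while its log2 difference stayed between 4.72 and 6.53 with each library left out in turn. In the same fits that of miR-146b-5p ran from 1.42 without freeze-dried replicate 3 to 2.12 without unmodified replicate 1. That of miR-155-5p ran from 0.67 without unmodified replicate 2 to 1.98 without freeze-dried replicate 3. The miR-146b-5p difference came under the threshold in several fits, for example with no group term (edgeR adjusted p = 0.029) or without freeze-dried replicate 2 (edgeR adjusted p = 0.043).

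**Figure D3:**
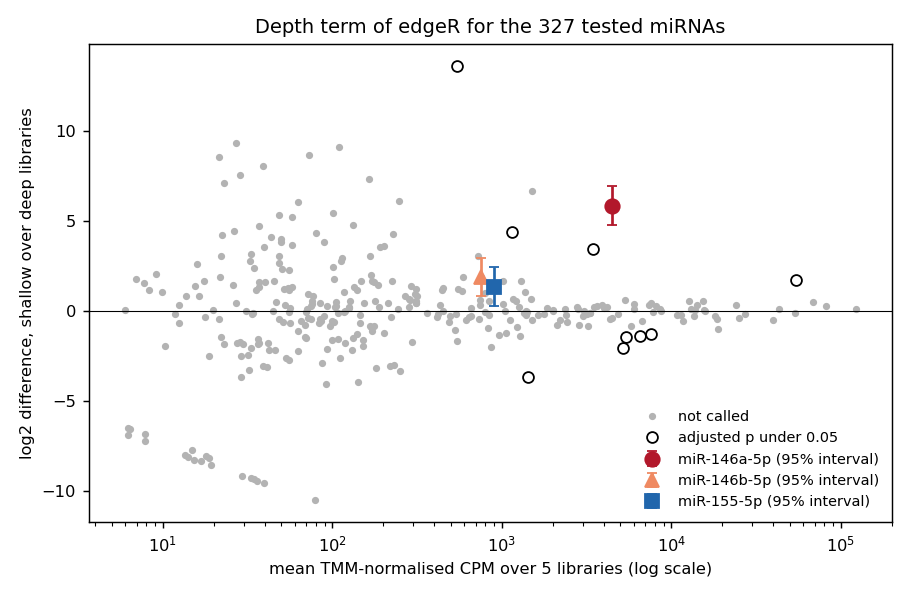
The log2 difference between shallow and deep libraries, from edgeR with group and depth class as terms, against mean TMM-normalised CPM on a log axis for the 327 tested miRNAs, with open circles at an adjusted p under 0.05 and bars for 95% intervals. miR-146a-5p lies at 5.85, above the other called miRNAs except miR-3069-3p at 13.6, which had no count in the deep libraries, and miR-146b-5p and miR-155-5p lie at 1.88 and 1.36.

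Ratios of counts within a library do not depend on the normalization and show how the balance of the 3 miRNAs moved. Counts of miR-146a-5p were 49.5% of the miR-146 pair in unmodified replicate 1 (exact 95% interval 46.1 to 53.0) and 90.6% in replicate 2 (interval 89.1 to 92.0). In freeze-dried EVs its part was 24.7% (22.6 to 26.9) in replicate 1, 22.9% (20.2 to 25.8) in replicate 2 and 87.1% (85.5 to 88.5) in replicate 3. miR-146a-5p was thus the major member of the pair in the shallow libraries and the minor one in the deep freeze-dried ones. The log2 ratio of the pair averaged 1.62 ± 2.33 over unmodified (SD, n = 2) and -0.20 ± 2.56 over freeze-dried libraries (SD, n = 3). Their difference of -1.83 is smaller than the SD of either group.

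miR-155-5p had the most counts of the 3 miRNAs in the deep freeze-dried libraries. It made up 60.2% of their summed counts in replicate 1 (exact interval 58.7 to 61.8) and 70.8% in replicate 2 (69.2 to 72.4). In freeze-dried replicate 3 it made up 11.0% (9.74 to 12.4). In unmodified EVs it made up 24.1% (21.6 to 26.8) in replicate 1 and 8.02% (6.82 to 9.36) in replicate 2. The mean log2 ratio of miR-155-5p to the miR-146 pair was -2.59 ± 1.32 unmodified (SD, n = 2) and -0.38 ± 2.31 freeze-dried (SD, n = 3), and the libraries of the groups overlapped.

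Set against miR-146b-5p alone, miR-155-5p was close to even in the shallow libraries, with ratios of 0.930 and 0.958. In the deep libraries the ratio was 0.629 without freeze-drying and 2.01 and 3.15 with it. Of all miRNA counts the 3 together took 0.120%, 0.133% and 0.123% in the deep libraries (unmodified replicate 1 and freeze-dried replicates 1 and 2). They took 1.39% and 1.18% in the shallow ones, most of it miR-146a-5p.

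**Figure D4:**
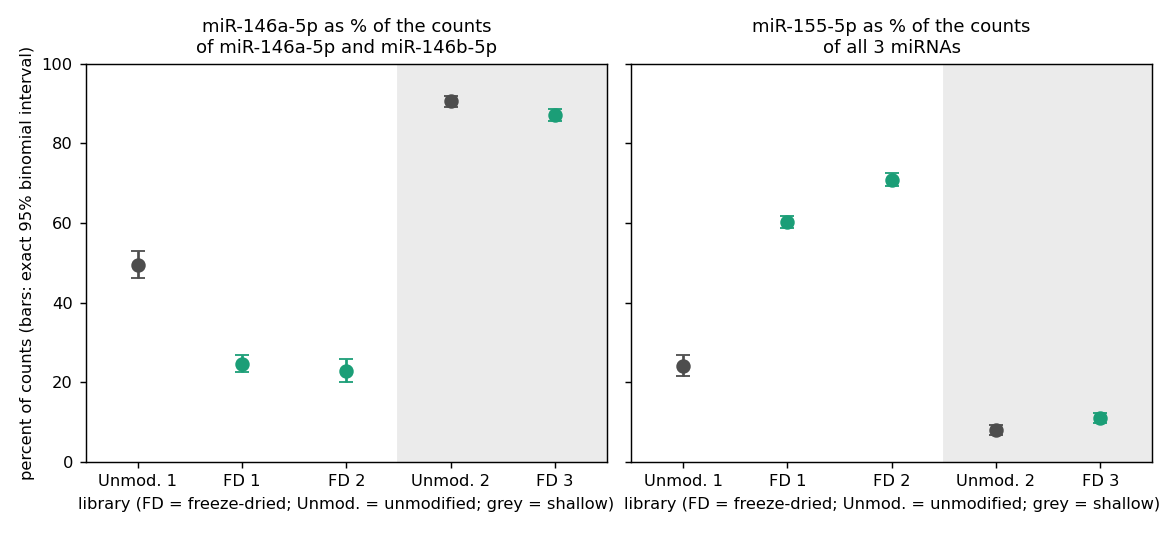
Left, miR-146a-5p as a percent of the counts of miR-146a-5p and miR-146b-5p, and right, miR-155-5p as a percent of the counts of all 3 miRNAs, for each library, with exact 95% binomial intervals as bars and the shallow libraries on grey. The left panel rises from 22.9 to 49.5% in the deep libraries to 87.1 and 90.6% in the shallow ones, and the right panel peaks at 70.8% in freeze-dried replicate 2.

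The miRNAs whose pattern over the 5 libraries lay nearest were found by the root-mean-square difference of log2 CPM, each centred on its own mean, among 149 others with at least 10 counts in every library. These values share libraries and normalization and are a description. For miR-146a-5p the nearest were miR-5100 at 0.98, miR-3102-3p at 1.28 and miR-6240 at 1.41, against a median distance of 3.05. miR-146b-5p lay farther away, at 2.12, and miR-155-5p at 2.75. The distance is not scaled by how much each miRNA varied. The SD of log2 CPM was 3.41 for miR-146a-5p, 1.08 for miR-146b-5p and 0.95 for miR-155-5p. The distance therefore does not show whether the 3 rose and fell together. miR-3102-3p was near the 10-count minimum, at 11.8 CPM in unmodified replicate 1 and 5.43 CPM in freeze-dried replicate 2. For miR-146b-5p the nearest were miR-1983 at 0.40, miR-92b-3p at 0.45 and miR-92a-3p at 0.46 (median 1.05). For miR-155-5p they were let-7b-3p at 0.11, miR-486b-5p at 0.38 and miR-421-3p at 0.41 (median 0.95). let-7b-3p followed miR-155-5p closely, with 177 and 612 CPM in unmodified EVs and 510, 533 and 904 CPM in freeze-dried EVs.

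Other miRNAs linked to NF-kB signalling were read from a list of 13 names, of which 12 had counts and were tested. In edgeR 0 of the 12 were called between the groups, 7 had a fold change above 1 and 5 below. Their median log2 fold change was 0.12, beside 0.02 over all tested miRNAs. Their summed share of raw counts was 15.7 to 17.4% in unmodified EVs and 13.96 to 15.3% in freeze-dried EVs, with no overlap. Most of it came from the abundant miRNAs named next. The gap does not hold once these shares are divided by the TMM factors. Those factors were 1.12 and 0.99 in unmodified EVs and 0.94, 1.04 and 0.91 in freeze-dried EVs. A full gap in TMM-scaled CPM between the groups was found for 17.4% of single tested miRNAs. The most abundant was miR-21a-5p, a miRNA of inflamed and proliferating tissue that lowers Pdcd4, with a log2 fold change of -0.28 (SE 0.33). miR-125b-5p, which is known to target tumour necrosis factor mRNA, had 0.11 (SE 0.28), and its family member miR-125a-5p 0.58 (SE 0.28). The depth term was called for 0 of the 12, and its median was -0.19 beside 0.03 over all tested miRNAs. miR-147-3p, a toll-like-receptor-induced miRNA of macrophages, had 0 counts in every library.

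Levels of miRNAs of other cells were set beside these values, because leukocytes also carry miR-146a and miR-155. Of 8 leukocyte miRNAs 3 had a count, and both strands of miR-142a, a defining miRNA of blood cells, were at 0 in all 5 libraries. So were miR-511-3p, miR-511-5p and miR-223-5p. miR-150-5p, a lymphocyte miRNA, stood at 154 and 115 CPM in unmodified EVs and at 38.5, 0 and 5.69 CPM in freeze-dried EVs, with a log2 fold change of -3.14 (SE 2.3, edgeR adjusted p = 0.98). Its counts were 157 and 15, and 106, 0 and 1, in the same order. miR-342-3p went the other way, at 388 and 628 CPM unmodified and 641, 893 and 1143 CPM freeze-dried. Its log2 fold change was 0.81 (SE 0.56, edgeR adjusted p = 0.98). miR-150-5p and miR-342-3p each had a full gap between the groups, as did 17.4% of the tested miRNAs. Of the 3 with a count, 1 had a fold change above 1 and 2 below. miR-223-3p, a miRNA of myeloid cells that is also on the NF-kB-linked list, stood at 95.1 and 0 CPM in unmodified EVs and at 14.5, 0 and 91.0 CPM in freeze-dried EVs. The leukocyte list took 0.0655 to 0.0931% of the counts in the deep libraries and 0.0738 to 0.113% in the shallow ones, most of it miR-342-3p. By group it took 0.0713 to 0.0738% in unmodified EVs and 0.0655 to 0.113% in freeze-dried EVs. The 4 red cell miRNAs took 0.0758 to 0.0973% in the deep and 0.120 to 0.170% in the shallow libraries, and the part of such RNA in the levels of the 3 miRNAs was not tested. The 9 mesenchymal miRNAs all had counts and took 17.9 to 22.8% of the deep and 15.5 to 22.1% of the shallow libraries. By group they took 22.1 to 22.8% in unmodified EVs and 15.5 to 18.1% in freeze-dried EVs, with no overlap. Among single tested miRNAs, 17.4% had a full gap in CPM between the groups. Of the 9, 4 had a fold change above 1 and 5 below, and edgeR called 0. The lowest was that of miR-143-3p, an abundant member of the list (log2 fold change -0.66, SE 0.26, edgeR adjusted p = 0.98). It stood at 60820 and 76924 CPM in unmodified EVs and at 46910, 48515 and 34891 CPM in freeze-dried EVs. The share of the list without miR-143-3p was not computed. miR-21a-5p, miR-125b-5p and miR-199a-5p are also on the NF-kB-linked list, so the shares of both lists are not separate results. The part of the mesenchymal gap in the group values of the 3 miRNAs was not tested.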

How the data were processed

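Small RNA libraries of 5 vesicle samples were counted by the authors, and the deposited values are raw counts per mature miRNA. Tools recorded in the submitters' processing notes, without role or order, are Bowtie 1.1.2, cutadapt 2.3, featureCounts 1.5.0-p1, FastQC and bcl2fastq 2.20, with the build GRCm38. The treatment of multiply matching reads, mismatches and PCR duplicates is not given in the sources used here. Total counts ranged from 131507 to 2914305, and deep means 500000 counts or more.

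Samples were grouped by title. The test was the robust quasi-likelihood F test of edgeR 4.0.16 (R 4.3.3) after filterByExpr and TMM scaling, with Benjamini-Hochberg adjustment over all 327 tested miRNAs and a threshold of 0.05. SEs are the log2 fold change divided by the square root of F. Binomial intervals are exact (Clopper-Pearson, scipy 1.17.1) and cover counting error only, as does the floor of 3 counts. Functions were tested on simulated counts with 200 miRNAs changed.

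The members and lists were chosen with earlier results of these data known. Named beside the members are their 3p strands, the 3 miRNAs nearest in pattern and the 3 most abundant of the NF-kB-linked list, which had no called member. Other miRNAs named by value or as called were chosen after their values were seen. Alternatives were other normalizations, filters, tools (DESeq2 1.42.0, limma-voom from limma 3.58.1), thinning, depth class, the replicate block and leaving out libraries.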

Additional observations from a re-analysis of the deposited data

How the results depend on the processing

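Over all alternatives the adjusted p of the group difference ranged from 0.86 to 0.999 for miR-146a-5p, from 0.84 to 0.999 for miR-146b-5p and from 0.73 to 0.999 for miR-155-5p. DESeq2 gave no p for miR-146a-5p. With each library left out in turn, the log2 fold change ranged from -5.68 to 2.98 for miR-146a-5p, from -1.14 to 0.74 for miR-146b-5p (also 0.13 and 0.22 on the other side of 0) and from -0.057 to 1.95 for miR-155-5p. Under the 11 other settings no sign changed, with ranges of -4.37 to -0.80, -1.07 to -0.03 and 0.50 to 1.69. The count of 0 called miRNAs became 4 with the replicate block and 1 in the 3 deep libraries alone, none of them miR-146a-5p, miR-146b-5p or miR-155-5p, and stayed 0 with each library left out. The replicate numbers make only 2 pairs, whose deviations from the group mean correlated at 0.15 and -0.11. The 2 unmodified deviations mirror each other by construction and follow depth class. These values therefore cannot show whether libraries with the same number share a culture or preparation. With that block, which leaves freeze-dried replicate 3 without a partner, edgeR gave log2 fold changes of -4.37, -1.07 and 0.65. The difference in the log2 ratio of miR-146a-5p to miR-146b-5p ranged from -3.48 to -0.17 with each library left out, that of miR-155-5p to the miR-146 pair from 1.28 to 3.53, and that of the summed share from -0.92 to 0.36 percentage points. The depth-term fits were added after the data were examined. In the shallow libraries 147 to 260 counts of miR-146b-5p and miR-155-5p limit the precision, and 2 against 3 libraries limit the group comparison.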
